A study of Mus musculus with 24 samples.

Results

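The LIM-homeobox genes *Lhx1*, *Lhx2*, *Lhx3*, *Lhx4*, *Lhx5*, *Lhx6*, *Lhx8*, *Lhx9*, *Isl1* and *Isl2* were followed through optic vesicle (OV) organoid development. They were chosen by gene symbol, as the Lhx and Isl rows of the RNA-seq table, and make up 10 of its 49705 genes. All but *Lhx4* passed a filter on low values (10 or more normalized counts in 3 or more libraries), so that 9 of 10 members were tested, among 21005 genes in all. OV organoids are aggregates of mouse embryonic stem cells (mESCs) that form neural retina-like epithelium in floating culture, and the series asked how cells reach an eye field-like state on the way. RNA was measured in 24 libraries, 3 in each of 8 groups. All groups came from the Rx-GFP K/I EB5 line, in which GFP is knocked into the *Rax* locus and so reports *Rax*, an early transcription factor of the eye field. All carried the treatment label none and the cell type label ESC.

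The groups were day 0 (dissociated mESCs at plating), day 1, day 2 and day 3 (all live single cells of the organoids), and day 4 and day 5 organoids sorted into GFP-positive (GFP+) and GFP-negative (GFP-) cells. The labels give 24 pooled organoids for each library, day 0 included, although day 0 held dissociated mESCs at plating. The spread between the 3 libraries of a group was therefore the spread between pools of 1 cell line. By the study's methods the day 4 and day 5 samples were each sorted into both gates, so the gates of a day came from the same organoids. The main fit did not pair them. Per the labels, the organoids were grown in GMEM with 1.5% knockout serum replacement, and Matrigel was added to 2% on day 1. The study's methods instead name a chemically defined medium for the first organoids made, and which of the media these libraries had was not settled here. The methods of the study state that the GFP-negative gate also took in cells of low GFP, that the GFP-positive gate held cells of high and moderate GFP, and that day 3 cells were not split although a few expressed GFP. Estimated depth ran from 37017489 to 54556314 reads per library, and the values after the authors' scaling summed to 39849111 to 51587535 normalized counts. Replicates correlated with a Spearman coefficient of at least 0.979, except for replicate 1 of day 0, which gave 0.953 and 0.954 with the other day 0 libraries and is treated separately where a result rests on it.

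LIM-homeodomain proteins are transcription factors that bind DNA through a homeodomain and bind partner proteins through paired LIM zinc-finger domains. The LIM domains are held by the adaptor Ldb1 or its relative Ldb2, which dimerizes and is kept stable by Ssbp proteins, so that LIM-homeodomain proteins act in multiprotein complexes. LIM-only (Lmo) proteins have LIM domains but no homeodomain and compete for the same adaptors. In the mouse the family falls into pairs of close relatives: *Lhx2* and *Lhx9*, *Lhx1* and *Lhx5*, *Lhx3* and *Lhx4*, *Lhx6* and *Lhx8*, and *Isl1* and *Isl2*. *Lhx2* is needed for the optic vesicle to progress to an optic cup, and *Lhx1* for head formation through the anterior mesendoderm.

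*Lhx2* was called higher and *Lhx1* lower in GFP+ than in GFP- cells on both days, *Isl1* was called lower on day 5 alone, and *Lhx9* had lower values in GFP+ cells but was not called on either day. The 250 bases before the RefSeq transcription start of these 4 genes (build GRCm38.p6, 5′ to 3′ on the gene's strand, CG dinucleotides in capitals) are shown to give the letters of these promoters. For *Lhx2* the window was chr2:38339031-38339280 on the plus strand, before the more upstream of 2 starts.
Lhx2: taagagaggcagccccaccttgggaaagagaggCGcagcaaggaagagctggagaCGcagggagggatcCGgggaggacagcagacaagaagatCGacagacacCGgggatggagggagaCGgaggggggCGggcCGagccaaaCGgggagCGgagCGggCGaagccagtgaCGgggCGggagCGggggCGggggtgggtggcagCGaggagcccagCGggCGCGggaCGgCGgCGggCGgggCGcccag
For *Lhx1* it was chr11:84525535-84525784 on the minus strand.
Lhx1: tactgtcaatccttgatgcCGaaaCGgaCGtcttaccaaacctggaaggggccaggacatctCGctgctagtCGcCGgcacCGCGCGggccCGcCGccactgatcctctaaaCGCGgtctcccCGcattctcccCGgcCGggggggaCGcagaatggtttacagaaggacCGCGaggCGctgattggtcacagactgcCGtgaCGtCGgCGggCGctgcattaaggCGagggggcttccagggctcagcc
For *Isl1* it was chr13:116309689-116309938 on the minus strand.
Isl1: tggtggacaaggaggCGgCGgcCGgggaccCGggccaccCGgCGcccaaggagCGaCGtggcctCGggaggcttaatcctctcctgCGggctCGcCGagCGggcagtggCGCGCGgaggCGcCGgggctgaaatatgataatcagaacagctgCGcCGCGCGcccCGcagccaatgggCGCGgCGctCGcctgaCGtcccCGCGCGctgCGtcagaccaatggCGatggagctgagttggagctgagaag
For *Lhx9* it was chr1:138842445-138842694 on the minus strand.
Lhx9: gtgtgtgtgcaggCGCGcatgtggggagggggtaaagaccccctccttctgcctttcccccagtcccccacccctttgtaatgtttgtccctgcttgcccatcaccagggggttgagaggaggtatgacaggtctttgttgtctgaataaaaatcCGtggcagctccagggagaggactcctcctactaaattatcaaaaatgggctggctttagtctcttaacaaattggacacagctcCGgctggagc

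The windows of *Lhx2*, *Lhx1* and *Isl1* held 25, 26 and 33 CG dinucleotides, against a median of 6 over 32851 promoter windows of 27025 genes, whereas that of *Lhx9* held 4. The *Lhx9* window lay inside the annotated gene, whose 5′ end is at 138848577. Those of *Lhx2*, *Lhx1* and *Isl1* lay at the annotated 5′ ends, so the starts are not alike. The windows rich in CG thus included those of *Lhx2*, called higher in GFP+ cells, and of *Lhx1*, called lower. All windows were searched on both strands for short motifs. TAATTA, a core of homeodomain sites, stands in 4.84% of all windows, TAATCC, bound by OTX-type factors, in 6.25%, ACAATG, bound by SOX factors, in 10.7%, the octamer ATGCAAAT in 1.60% and the TATA box TATAAA in 12.4%. Of the 4 windows shown, that of *Isl1* held TAATCC, beginning 177 bases before the start, and the other 3 held no match. In all, 9 of 10 members (all but *Lhx5*) had a window in the RefSeq table, and of the others *Isl2* and 1 of 3 starts of *Lhx6* held ACAATG on the reverse strand and 1 of 2 starts of *Lhx3* held TATAAA.

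The summed level of the family and its makeup both changed. In bulk samples such as these, fewer cells of a type and less RNA per cell cannot be told apart. Levels of different genes were compared per kilobase (kb) of merged exons. The 10 genes summed to a mean level of 69.6 per kb on day 0, 59.4 on day 1 and 66.1 on day 2, and had risen to 251 per kb a day later. It was then 2515 and 5221 in day 4 GFP- and GFP+ cells, and 1882 and 4300 in those of day 5. *Lhx6* held the largest share on days 0 and 1 (33.2% and 33.7%) and *Lhx1* on day 2 (23.2%). *Lhx5* held the largest share on day 3 (43.0%) and in GFP- cells (57.4% on day 4 and 64.4% on day 5). The order on day 3 depended on the length used: per kb of coding sequence *Lhx1* was above *Lhx5*, at 270 against 241. *Lhx2* held it in GFP+ cells, with 69.7% on day 4 and 84.5% on day 5.

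**Figure D1:**
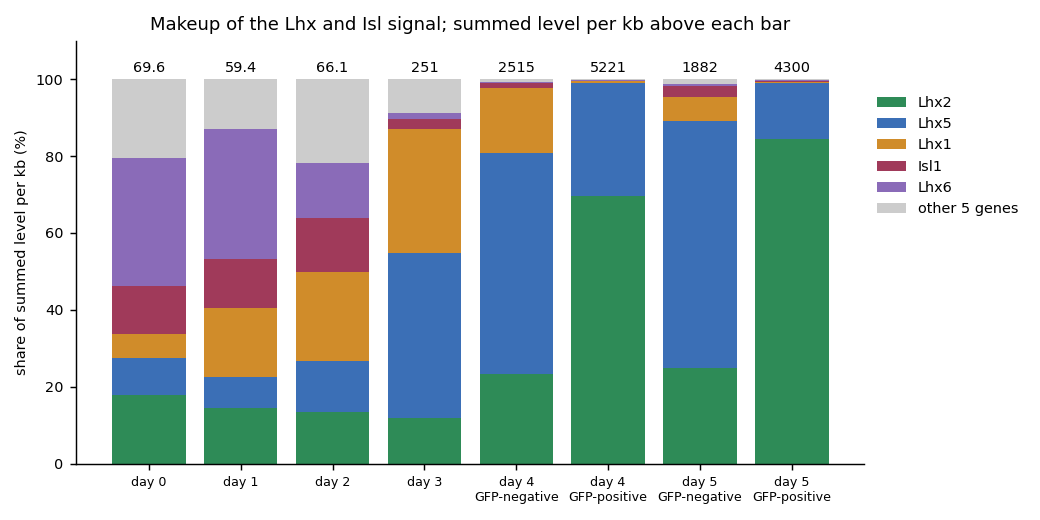
Stacked bars give each gene's share, in percent, of the summed mean level per kb of merged exons of the 10 genes, with 1 bar for each of the 8 groups and the summed level printed above it. *Lhx5* fills the largest part of the bar in both GFP- groups, and *Lhx2* 69.7% and 84.5% of it in the GFP+ groups.

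Differences between groups were tested with limma on log2(normalized count + 1), with the standard error (SE) of each log2-fold-change, and a gene was called when its Benjamini-Hochberg adjusted p was under 0.001 and its log2-fold-change beyond 1.5 in either direction. Of the 9 members tested, 7 were called in at least 1 of 11 contrasts, as were 21.5% of all tested genes. *Lhx2* was called in 5 contrasts, *Lhx1* and *Lhx5* in 4 each, *Isl1* in 2, and *Lhx6*, *Lhx8* and *Lhx9* in 1 each. *Lhx3* and *Isl2* were called in none, though *Lhx3* had an unadjusted p under 0.05 in the contrast of day 4 GFP+ cells with day 3.

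**Figure D2:**
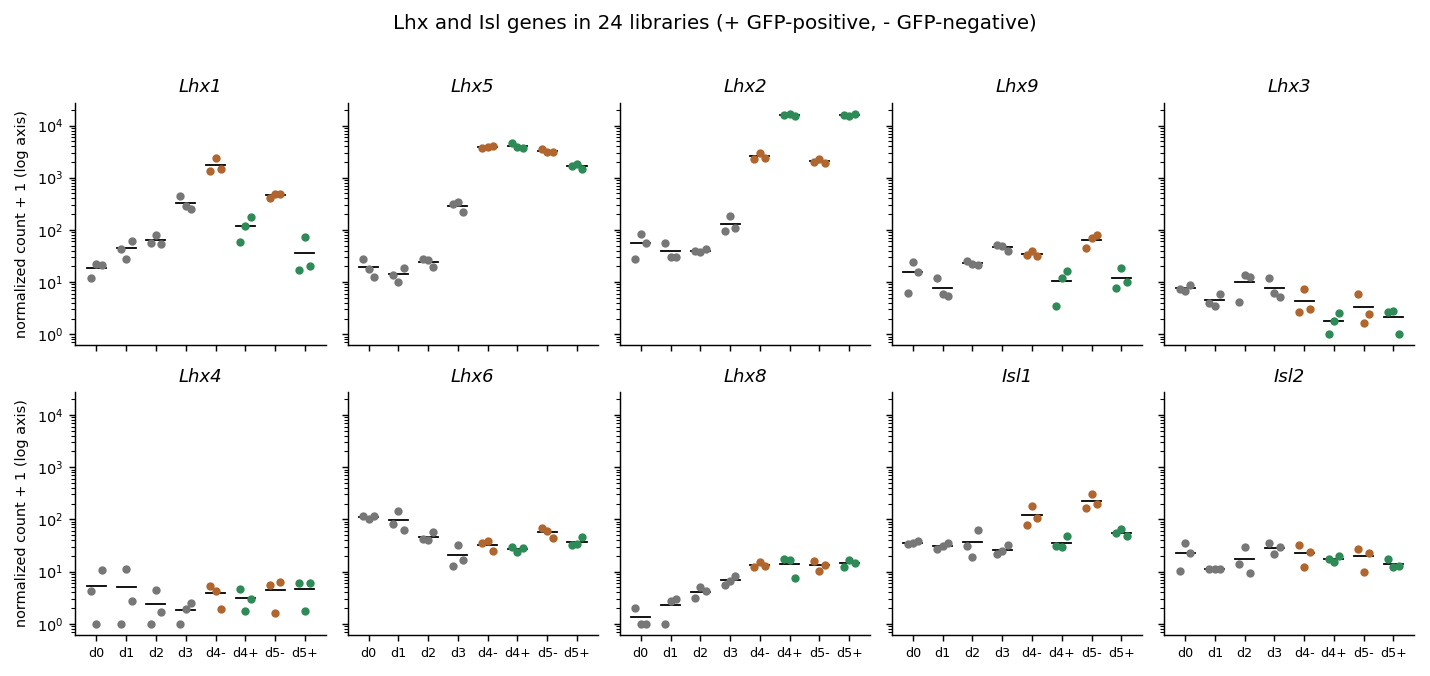
Each panel plots the normalized count + 1 of a gene (log axis) in the 3 libraries of each of the 8 groups (points) with the group mean (line). Grey is unsorted, brown GFP- and green GFP+. *Lhx2* lies between 15182 and 16692 in all 6 GFP+ libraries, and *Lhx1* is highest in day 4 GFP- cells.

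*Lhx2* (ENSMUSG00000000247, mm10 chromosome 2, 38339281 to 38369733, plus strand) and *Lhx9* (ENSMUSG00000019230, chromosome 1, 138825186 to 138848577, minus strand) parted between the gates. *Lhx2* stood at 26.4 to 81.0 normalized counts in the 9 libraries of days 0 to 2, and at 95.1, 186 and 110 in the 3 of day 3. No day 3 library overlapped an earlier one. Over the last of these steps, days 2 to 3, the log2-fold-change was 1.65 (SE 0.30, adjusted p = 0.000715). With *Lhx5*, this made 2 members called higher over that day, against 0.714% of all genes, and 0 called lower, against 0.290%; *Lhx6* alone had an unadjusted p under 0.05 in that direction (-1.27, adjusted p = 0.0119). That call was narrow: it was kept in 1 of 6 fits that left out a library of these days, and was lost without any library of day 2 (1.60 to 1.70) and without replicate 2 (1.36) or 3 (1.74) of day 3. It was also lost in 4 of 8 other settings (no filter, quantile normalization, no variance trend and a fit of only the compared groups), with adjusted p up to 0.00692. Against day 0 the change of 1.33 (SE 0.30, adjusted p = 0.00098) was under the fold threshold. Without the outlying replicate 1 of day 0 it was 0.89, and it passed without replicate 2 of day 0 (1.68) or replicate 1 of day 3 (1.52).

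In day 4 GFP+ cells *Lhx2* stood at 16110, 16692 and 15182 normalized counts, and in the GFP- cells of that day at 2288, 3013 and 2431. Every GFP+ library was above every GFP- one, and both gates were far above day 3. Against day 3, *Lhx2* had a log2-fold-change of 6.99 in GFP+ cells and 4.35 in GFP- cells (SE 0.30 each; adjusted p = 1.76e-13 and 1.65e-09), and these contrasts share the day 3 libraries. The GFP- mean was therefore 16.1% of the GFP+ mean, while day 3 held 0.816% of it. For *Rax*, on whose reporter the gates were set, the GFP- mean was 10.2% and day 3 held 1.21%. For *Pax6* and *Six3*, other eye-field transcription factors, the GFP- means were 28.4% and 29.8% of the GFP+ means. How much of the *Lhx2* in the GFP- gate came from its cells of low GFP was not tested.

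From day 4 to day 5 *Lhx2* was not called in GFP+ cells, where it had 16154, 15246 and 16488 normalized counts on day 5, a range that overlapped that of day 4. The log2-fold-change was -0.0026 with a 95% interval of -0.62 to 0.61. In day 5 GFP- cells it stood at 1989, 2240 and 1931, or 12.9% of the GFP+ mean. Each of these was under the lowest day 4 GFP- library, but the log2-fold-change of -0.32 (95% interval -0.94 to 0.30) was not called. In order, the 2 GFP+ groups did not differ beyond their spread, day 4 and day 5 GFP- cells followed, then day 3, and the ranges of days 0, 1 and 2 overlapped.

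*Lhx9*, the close relative of *Lhx2*, with roles in gonad and neuron development, was scarce and went the other way. On day 3 it stood at 49.4, 48.4 and 38.5 normalized counts, in day 4 GFP+ cells at 2.48, 10.8 and 15.4, and in day 4 GFP- cells at 31.4, 38.4 and 30.5. On day 5 it stood at 6.65, 17.3 and 9.20 in GFP+ and at 43.3, 67.6 and 79.3 in GFP- cells. The gates did not overlap on either day. The fall from day 3 into GFP+ cells was called, at -2.40 (SE 0.52, adjusted p = 0.000834). It was the only member called lower there, against 7.36% of all genes, and *Lhx2* and *Lhx5* were the 2 called higher, against 3.33%. The call was kept in 1 of 6 fits that left out a library, with values of -2.85 to -1.73, and was lost without any library of day 3 or without replicate 1 or 2 of the GFP+ cells. It was also lost in 5 of 7 other settings (a pseudocount of 0.5, no filter, quantile normalization, no variance trend and a fit of only the compared groups), with adjusted p up to 0.0101. Between the gates *Lhx9* differed by -1.97 on day 4 and -2.47 on day 5 (SE 0.52 each; adjusted p = 0.0108 and 0.00148), which was not called. Left without replicate 1 of day 0, which enters only the shared spread, the day 5 difference of *Lhx9* was called (adjusted p = 0.000358), as it was with a pseudocount of 5.

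*Lhx1* (ENSMUSG00000018698, chromosome 11, 84518284 to 84525535, minus strand) and *Lhx5* (ENSMUSG00000029595, chromosome 5, 120431699 to 120441223, plus strand), which are expressed in the early head and forebrain, both rose before sorting. *Lhx1* stood at 11.1, 20.9 and 20.3 normalized counts on day 0, at 42.3, 26.8 and 60.5 on day 1 and at 54.9, 78.8 and 53.7 on day 2. On day 3 it stood at 451, 287 and 248. Day 3 lay above every earlier library, while days 1 and 2 overlapped. Between the mESCs and day 3 *Lhx1* rose by 4.16 log2 units (SE 0.46, adjusted p = 2.50e-07). The step from day 2 to day 3 alone was 2.35 (SE 0.46), with an adjusted p of 0.00153 that missed the threshold, and it passed without replicate 1 of day 0 in the fit (adjusted p = 0.00062).

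*Lhx5* also rose by day 3. It stood at 9.18 to 26.5 normalized counts in the 9 libraries of days 0 to 2 and at 306, 342 and 222 on day 3. The ranges of days 0, 1 and 2 overlapped, and day 3 lay apart from all of them. Its rise over the last step, against day 2, was 3.56 log2 units (SE 0.24, adjusted p = 5.36e-09), and the call was kept in each of 6 fits that left out a library. *Lhx5* thus had 7.09% of its day 4 GFP+ mean on day 3. The same share was 0.816% for *Lhx2*, 1.21% for *Rax*, 1.67% for *Pax6* and 7.27% for *Six3*.

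On day 4 the relatives parted. *Lhx1* stood at 57.6, 119 and 179 normalized counts in GFP+ and at 1362, 2396 and 1460 in GFP- cells. The gates were far apart, with day 3 between them. *Lhx5* stood at 4597, 3928 and 3756 in GFP+ and at 3777, 3838 and 4032 in GFP- cells, and here the gates overlapped. Between the gates *Lhx1* was lower in GFP+ cells by 3.96 on the log2 scale (a log2-fold-change of -3.96, SE 0.46, adjusted p = 1.74e-06), while *Lhx5* differed by 0.072 with a 95% interval of -0.43 to 0.57. On day 4 *Lhx2* was the only member called higher in GFP+ cells, against 0.328% of all genes, and *Lhx1* the only member called lower, against 3.63%. The *Lhx1* call was kept in each of 6 fits without 1 library (-4.33 to -3.52), and was lost when the fit held only the compared groups (adjusted p = 0.00112, the highest of 8 settings that began at 6.15e-07).

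From day 3, *Lhx5* rose by 3.83 into GFP+ and 3.76 into GFP- cells (SE 0.24 each; adjusted p = 4.83e-11 and 7.61e-10). *Lhx1* rose by 2.40 into GFP- cells (SE 0.46, adjusted p = 0.000688) and fell short of a call in GFP+ cells (-1.56, adjusted p = 0.00999). With *Lhx2* and *Isl1* this made 4 members called higher in day 4 GFP- cells than on day 3, against 2.00% of all genes, and 0 called lower, against 0.871%, with 0 at an unadjusted p under 0.05 in that direction. The *Lhx1* rise was lost in each of the 6 fits that left out 1 library of day 3 or of the day 4 GFP- cells (2.15 to 2.65, adjusted p = 0.00118 to 0.00698), and also with no filter, with no variance trend and with only the compared groups in the fit (adjusted p up to 0.00149).

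On day 5 *Lhx1* was lower in both gates than on day 4. It stood at 16.3, 70.9 and 19.2 normalized counts in GFP+ and at 410, 483 and 494 in GFP- cells, again without overlap. The log2-fold-changes from day 4 were -1.88 in GFP+ and -1.87 in GFP- cells (SE 0.46 each; adjusted p = 0.00927 and 0.0106), neither of which was called. Without replicate 2, the highest of the day 5 GFP+ libraries, the former was -2.53 (adjusted p = 0.000389) and called. The gate difference of *Lhx1* was -3.98 on day 5 (SE 0.46, adjusted p = 1.34e-06), a call again lost when the fit held only the compared groups (adjusted p = 0.0025), and its change from day 4 was -0.016 with a 95% interval of -1.37 to 1.33. In order, day 4 GFP- cells were highest, the ranges of day 5 GFP- cells and day 3 overlapped, and those of day 4 GFP+ cells, day 2, day 1 and day 5 GFP+ cells overlapped each with its neighbour.

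*Lhx5* parted between the gates on day 5. It stood at 1699, 1858 and 1462 normalized counts in GFP+ and at 3581, 3133 and 3060 in GFP- cells, so that the gates no longer overlapped. The GFP+ mean was 51.3% of the GFP- mean and 40.9% of that of day 4. The fall from day 4 in GFP+ cells was -1.29 (SE 0.24, adjusted p = 0.000889), past the p threshold and under the fold threshold, and the gate difference was -0.96 (SE 0.24, adjusted p = 0.0064), which was not called. The change of the gate difference from day 4 to day 5, tested itself, was -1.04 (95% interval -1.74 to -0.33, adjusted p = 0.195).

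The balance of *Lhx2* and *Lhx5* differed between the gates. Per kb of merged exons, *Lhx2* had 0.407 ± 0.0638 of the *Lhx5* level in day 4 GFP- cells and 0.388 ± 0.0488 in those of day 5 (SD, n = 3 each). The ratio in GFP+ cells was 2.41 ± 0.235 on day 4, and 5.92 ± 0.945 a day later (SD, n = 3 each). On day 3 it was 0.275 ± 0.0755. The ranges of the GFP- groups overlapped each other, and those of the GFP+ groups did not overlap any other group of days 3 to 5. On days 0 and 1, when both genes were scarce, the ratio ran from 0.609 to 3.01 and from 1.04 to 2.73, ranges that covered that of day 4 GFP+ cells, and its mean on day 2 was 1.06. Per kb of coding sequence the day 4 ratios were 0.658 in GFP- and 3.89 in GFP+ cells, on the same sides of 1.

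Markers of the mesendoderm and organizer, tissues in which *Lhx1* is known to be expressed, moved with it. Of 8 such markers, 7 were called lower in day 4 GFP+ than GFP- cells and 8 on day 5, with median log2-fold-changes of -3.86 and -3.95, where 3.63% and 4.61% of all genes were called lower. Their summed level was 371 to 733 normalized counts in day 4 GFP+ and 6829 to 9817 in GFP- libraries, and 237 to 329 against 3407 to 4414 on day 5. On day 3 it was 3436 to 3602, between the gates of day 4, as was that of *Lhx1*. No defining marker was at 0 in the GFP- cells: *Cer1*, a secreted antagonist of the anterior endoderm, had a mean of 489 normalized counts in day 4 GFP- and 36.4 in GFP+ cells, and *T*, of the primitive streak, 1925 and 145. All 6 pluripotency markers listed were also called lower in the GFP+ gate on both days, with a summed level of 1208 to 2096 against 14375 to 15923 normalized counts on day 4 and 355 to 514 against 4975 to 5839 on day 5. The part of either cell type in the differences of *Lhx1*, *Isl1* and *Lhx9* was not tested.

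*Isl1* (ENSMUSG00000042258, chromosome 13, 116298281 to 116309689, minus strand), a factor of motor neurons, retinal ganglion cells and cardiac progenitors, was on the GFP- side as well. It stood at 17.6 to 61.9 normalized counts in the 12 libraries of days 0 to 3. In day 4 cells it stood at 29.3, 28.8 and 46.2 in the GFP+ and at 77.7, 178 and 107 in the GFP- gate. In day 5 cells it stood at 53.2, 63.6 and 47.5 and at 166, 304 and 193. The gates did not overlap on either day, and the GFP+ libraries of day 4 lay within the range of days 0 to 3. *Isl1* rose by 2.15 from day 3 into day 4 GFP- cells (SE 0.36, adjusted p = 0.000192), a call kept in 3 of 6 fits and lost without replicate 1 (2.03) or 2 (2.12) of day 3 or without replicate 2 of the GFP- cells (1.83), as it was with only the compared groups in the fit (adjusted p = 0.00561).

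Between the gates *Isl1* differed by -1.72 on day 4 (SE 0.36, adjusted p = 0.00164), which was not called, and by -1.95 on day 5 (SE 0.36, adjusted p = 0.000411), which was. On day 5 *Isl1* and *Lhx1* were the 2 members called lower in GFP+ cells, against 4.61% of all genes, and *Lhx2* the 1 called higher, against 0.400%, at 2.96 on the log2 scale (SE 0.30, adjusted p = 1.97e-07). The *Isl1* call of day 5 was kept in 1 of 6 fits, that without replicate 1 of the GFP- cells (-2.14), and the others gave -2.06 to -1.70. It was also lost with quantile normalization and with only the compared groups in the fit (adjusted p up to 0.00685). The change of its gate difference between the days was -0.24 with a 95% interval of -1.30 to 0.83. *Isl2* (ENSMUSG00000032318, chromosome 9, 55538672 to 55546180, plus strand), its relative in motor neurons, stayed between 8.23 and 33.98 normalized counts in all 24 libraries, and its gate differences were -0.29 on day 4 and -0.39 on day 5 (SE 0.48 each).

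**Figure D3:**
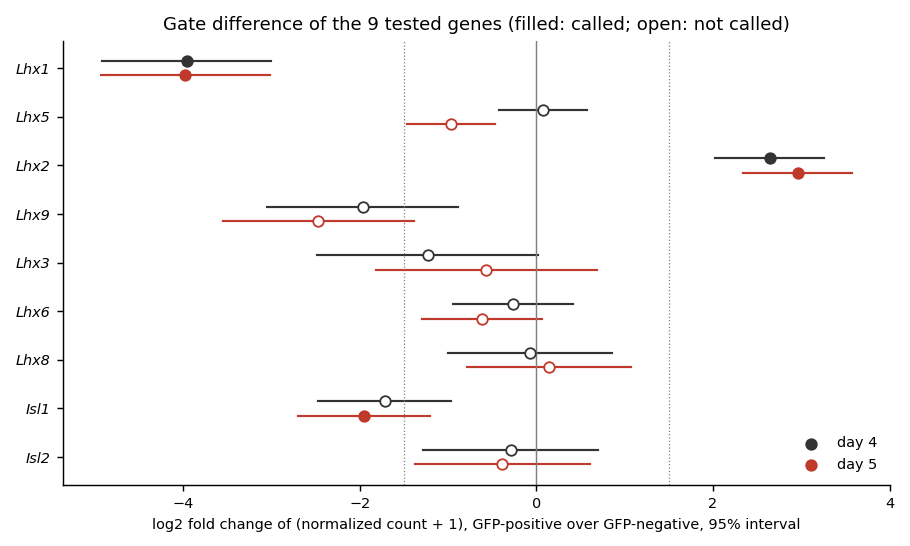
Points give the log2-fold-change of (normalized count + 1) in GFP+ over GFP- cells for the 9 tested genes, black for day 4 and red for day 5, with 95% intervals from limma. Filled points were called and dotted lines mark a log2-fold-change of 1.5 in either direction. *Lhx2* lies to the right on both days, *Lhx1* to the left, and *Lhx5* at 0.072 on day 4 and -0.96 on day 5.

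Markers of cells in which *Isl1* is known were looked at beside it. Of 8 cardiac and lateral mesoderm markers, 5 were called lower in GFP+ cells on each day, against 3.63% and 4.61% of all genes, and their summed level was 1688 to 5645 normalized counts in day 4 GFP- and 87.3 to 399 in GFP+ libraries. On day 5 it was 2866 to 6351 and 196 to 405. *Chat*, which defines cholinergic neurons, motor neurons among them, had a mean of 1.18 normalized counts in day 5 GFP- cells and was at 0 in the GFP+. The part of either cell type in the *Isl1* difference was not tested.

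*Lhx6* (ENSMUSG00000026890, chromosome 2, 36081953 to 36105408, minus strand) and *Lhx8* (ENSMUSG00000096225, chromosome 3, 154306294 to 154330659, minus strand), which act in ventral forebrain neurons and in the jaw and teeth, moved in opposite directions. *Lhx6* stood at 116, 102 and 114 normalized counts in mESCs and at 81.7, 144 and 62.4 a day into culture. It then stood at 41.3, 38.8 and 56.8 on day 2 and at 11.9, 31.3 and 15.5 on day 3. Days 0 and 1 overlapped, and days 2 and 3 each lay below all libraries before them. Against day 0, *Lhx6* fell by 2.56 log2 units by day 3 (SE 0.33, adjusted p = 1.97e-06), a call lost only when the fit held the compared groups alone (adjusted p = 0.00429). It was the 1 member called lower between those days, against 6.12% of all genes, and *Lhx1*, *Lhx5* and *Lhx8* were the 3 called higher, against 5.91%. In sorted cells *Lhx6* stood at 23.0 to 68.5 normalized counts, and its gate differences of -0.27 and -0.62 (SE 0.33 each) were not called.

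*Lhx8* was at 0 in 2 of the 3 day 0 libraries and at 0.997 in the other, and stood at 4.47, 5.66 and 7.33 normalized counts on day 3. It stood at 6.39 to 16.4 in all 12 sorted libraries, where the 4 groups overlapped. Its rise by day 3 over day 0 was 2.42 on the log2(value + 1) scale (SE 0.45, adjusted p = 0.000155), but with counts this near 0 its size depended on the pseudocount. It was lost without replicate 2 or 3 of day 0 (2.25 each) or replicate 3 of day 3 (2.26), and also with a pseudocount of 5 or with only the compared groups in the fit (adjusted p up to 0.0159). *Lhx3* (ENSMUSG00000026934, chromosome 2, 26200212 to 26208289, minus strand) and *Lhx4* (ENSMUSG00000026468, chromosome 1, 155698031 to 155751684, minus strand), which act in pituitary and motor neuron development, stayed at most at 12.9 and 10.2 normalized counts in any library. *Lhx3* had its highest mean, 9.10, on day 2 and its lowest, 0.789, in day 4 GFP+ cells. *Lhx4* was tested only when the filter was left out, where it was not called in any contrast.

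Over the remaining steps no member was called. From day 0 to day 1, where 0.738% of all genes were called, 1 member (*Lhx1*) had an unadjusted p under 0.05 by limma. From day 1 to day 2, where 1.47% were called, 4 had, and the changes of *Lhx5* (0.83), *Lhx6* (-0.99) and *Lhx9* (1.66) had adjusted p of 0.0189, 0.0428 and 0.0311. From day 4 to day 5, 2 members had an unadjusted p under 0.05 in GFP+ cells, where 1.49% of genes were called, and 3 had in GFP- cells, where 1.27% were. For the change of the gate difference, called in 0.109% of genes, 1 member had, *Lhx5*.

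The proteins that LIM-homeodomain factors assemble with included steady and changing genes. *Ldb1*, the main adaptor, ran between a lowest mean of 7305 normalized counts (day 3) and a highest of 11486 (day 4 GFP+ cells), and was not called in any of the contrasts. *Ldb2* stood at 0 to 28.1 normalized counts on days 0 and 1 and at 150 to 174 on day 2, without overlap, and rose by 4.06 on the log2 scale over that day (SE 0.70, adjusted p = 0.000358). From day 0 to day 3, 4 of 10 cofactor and LIM-only genes were called higher (*Ldb2* 5.86, *Lmo3* 3.00, *Ssbp2* 1.87 and *Lmo1* 1.82) and 1 lower (*Ssbp4* -2.20), against 5.91% and 6.12% of all genes, with a median of 0.82 over the list and -0.035 over all genes. The adaptor partners *Ssbp2* and *Ssbp4* thus moved in opposite directions, from means of 269 and 5261 normalized counts on day 0 to 975 and 1138 on day 3.

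*Lmo3* and *Lmo1* rose from day 3 into both gates of day 4. They were the 2 genes of the list called higher in each, against 3.33% of all genes in GFP+ and 2.00% in GFP- cells. The mean of *Lmo3* was 12.4 ± 1.1 normalized counts before sorting on day 3, 443 ± 18.2 in day 4 GFP+ and 90.3 ± 11.3 in GFP- cells (SD, n = 3 each). A day later it reached 1357 ± 55.8 in GFP+ and 314 ± 27.3 in GFP- cells (SD, n = 3 each). It was the only gene of the list called between the gates on day 4 (2.29, SE 0.31, adjusted p = 1.22e-05), where 0.328% of all genes were called higher and 3.63% lower. *Lmo3* was called again on day 5 (2.11, adjusted p = 2.87e-05), where 0.400% were called higher and 4.61% lower. *Lmo2*, a factor of blood and vessel development, went the other way on day 5, with 80.1, 108 and 112 normalized counts in GFP+ and 363, 391 and 426 in GFP- cells (-1.98, SE 0.25, adjusted p = 3.53e-06). *Lmo1* stood at 1253 ± 115 in GFP+ and 680 ± 99.8 in GFP- cells on day 4 (SD, n = 3 each). The rise of *Lmo1* from day 3 was 4.13 and 3.24 on the log2 scale (adjusted p = 2.22e-12 and 8.40e-10). On day 5 its means were lower, at 850 ± 136 and 344 ± 39.5 (SD, n = 3 each), a fall that was not called in either gate.

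**Figure D4:**
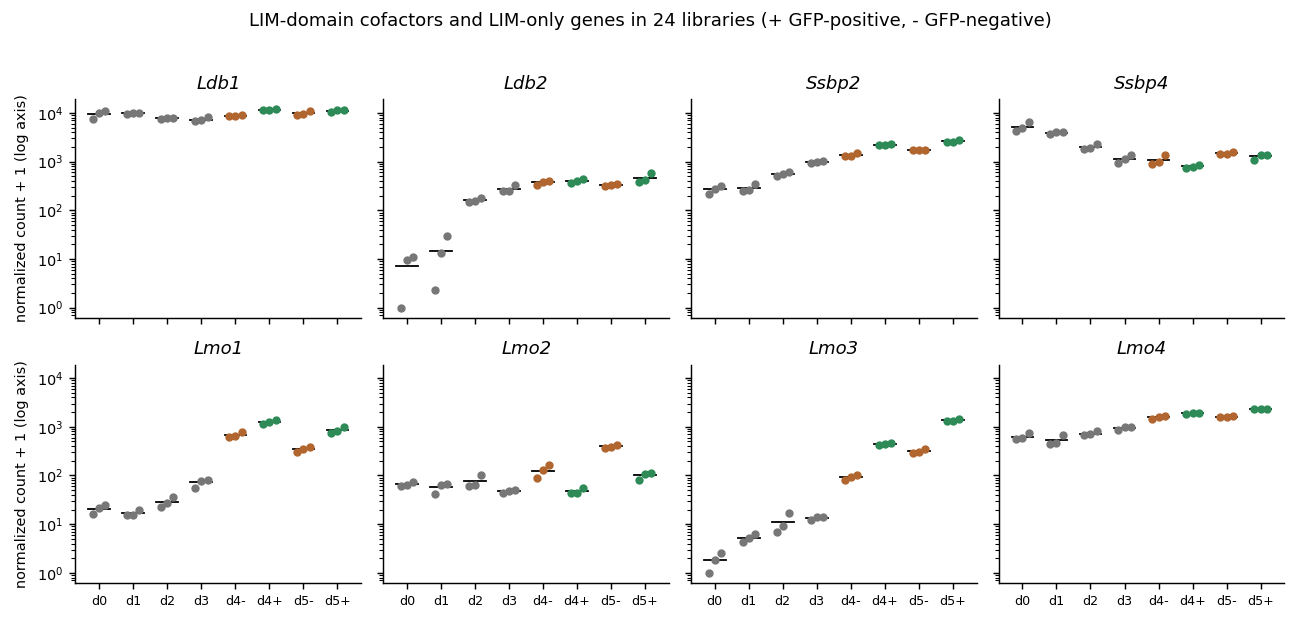
Each panel plots the normalized count + 1 (log axis) of a cofactor or LIM-only gene in the 3 libraries of each group, ordered from the lowest to the highest within a group, with the group mean as a line and the gate colours green for GFP+ and brown for GFP-. *Ldb1* has group means between 7305 and 11486, while *Lmo3* climbs from a mean of 0.807 on day 0 to 1357 in day 5 GFP+ cells.

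The genes most like each member were taken as those with the highest Pearson correlation over the 24 libraries, which share their groups, on the log2 scale, among genes with a group mean of at least 100. *Lhx2* was most like *Fbn2* (0.991), *Scube1* (0.985) and *Grem1* (0.981), *Lhx5* most like *Sema6d* (0.990), *Sox9* (0.985) and *Frzb* (0.984), and *Lhx1* most like *Cer1* (0.961), *Nkx1-2* (0.941) and *Dll3* (0.928). *Isl1* was most like *Unc5c* (0.928), *En1* (0.922) and *Tfap2b* (0.909). No gene stood in the lists of more than 1 of these 4 members. By rank correlation the list of *Lhx1* was the same, while those of *Lhx2* and *Lhx5* each shared 1 of 3 genes with the same member's Pearson list. Of the other members, *Lhx8* was most like *Smarca2* (0.956), and the rest had lower highest values, with *Emp1* for *Lhx6* (0.897), *Fabp7* for *Lhx9* (0.848), *Ggt1* for *Lhx3* (0.809) and *Fat1* for *Isl2* (0.689). Among the members, *Lhx2* and *Lhx5* correlated with 0.909 over the 24 libraries, *Lhx1* and *Lhx5* with 0.612, and *Lhx1* and *Lhx2* with 0.287.

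Antisense genes lie across 4 members, and the strand setting of the libraries is not given in the sources used here, so shared reads cannot be told apart. *Gm27197* and *Gm13584*, antisense to *Lhx2* and sharing none of its exon bases, had means of 55.8 and 62.0 normalized counts in day 4 GFP+ and 7.19 and 10.6 in GFP- cells. They thus lay on the same side of the gates as *Lhx2*. *Gm27199*, antisense to *Lhx5* and sharing 69 of its 2689 exon bases, had 39.1 and 39.3 in the gates of day 4 and 19.98 and 44.4 in the GFP+ and GFP- gates of day 5. *Gm27196*, antisense to *Lhx3*, was at 0 in all groups.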

How the data were processed

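RNA-seq had been done on 24 libraries from 8 groups of 3 (Rx-GFP mESC-derived organoids, labelled by day and GFP gate). The authors quantified polyA RNA libraries (TruSeq kit) with kallisto 0.43.1 against mouse build 38 (mm10) transcripts from Ensembl, scaled the estimates with DESeq2 size factors and deposited the table, so its values are a normalized signal per gene, here called normalized counts, and not whole reads. Within 0.1 of a whole multiple of the worth of 1 read lay only 45.8% to 76.8% of the low values of a library, so no count model was used. The 9 columns that mark, as true or false, membership in the authors' own gene sets (genes rising, falling or steady) were not used.

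Values were taken to log2(value + 1), and genes with at least 10 in 3 or more libraries were fitted with limma 3.58.1 in R 4.3.3 (all 24 libraries, 8 group means, mean-variance trend, Benjamini-Hochberg adjustment within each contrast over 21005 genes). A call needed an adjusted p below 0.001 together with a log2-fold-change beyond 1.5 in either direction, as in the study's methods. Estimated reads numbered 37017489 to 54556314 per library. The script was tested on simulated data.

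The members and the marker lists were chosen with earlier results of these data known, and nothing here is an independent test of them. All 10 members are named, and up to 4 genes of each list with the largest called change, *Rax*, and the 3 genes most correlated with each member; *Ldb1*, *Chat*, *Pax6* and *T* were added to these. Gene positions are those of the deposited table and matched GENCODE M21 (GRCm38) for all 10. Per-kb levels used merged exon lengths of GENCODE M21. Some marker genes are not reported here.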

Additional observations from a re-analysis of the deposited data

Results flagged for a closer look

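The change from day 3 to day 4 differed between the gates for 2 members, by the test of the difference itself, in which the shared day 3 libraries cancel. For *Lhx2* the GFP-positive change exceeded the GFP-negative change by 2.64 on the log2 scale, with a rise in both. For *Lhx1* the GFP-positive change minus the GFP-negative change was -3.96, with a rise in GFP-negative cells (2.40) and a change of -1.56 in GFP-positive cells that was not called. Each held in all 6 fits that left out 1 library of day 4. No member's gate difference itself changed between day 4 and day 5 past the threshold, the nearest being *Lhx5*.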

How the results depend on the processing

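The rises of *Lhx5* on days 3 and 4, those of *Lhx2* into both day 4 gates and the *Lhx2* gate differences were called under every alternative fit and without any 1 library of their groups. Fitting only the groups compared, with fewer degrees of freedom, lost most: 1 member instead of 2 was called from day 2 to day 3 and between the day 4 gates, 2 instead of 4 from day 0 to day 3 and from day 3 into day 4 GFP-negative cells, 1 instead of 3 between the day 5 gates, and 2 instead of 3 (without *Lhx9*) from day 3 into day 4 GFP-positive cells, as also with a pseudocount of 0.5, no filter, quantile normalization or no variance trend. Over all genes it moved the counts of days 0 to 1, 1 to 2, 2 to 3 and 0 to 3 from 155 to 1, 309 to 150, 211 to 119 and 2527 to 556. It moved those of day 3 to day 4 GFP-negative cells and of the gates of days 4 and 5 from 604 to 295, 832 to 286 and 1052 to 528, and those of day 4 to 5 in GFP-positive and GFP-negative cells from 312 to 67 and 267 to 105. From day 2 to day 3 the member count was also 1 (without *Lhx2*) with no filter, quantile normalization or no variance trend, and the cause was not tested. With an adjusted p under 0.05 and no minimum fold, members called numbered 3 from day 1 to day 2, 4 from day 2 to day 3, 5 from day 3 to day 4 GFP-positive cells, 4 and 5 between the gates of days 4 and 5, and 2 and 1 from day 4 to day 5 in GFP-positive and GFP-negative cells, and all-gene counts were as high as 9164. Leaving out 1 library of the groups compared gave 1 to 2 members from day 2 to day 3, 2 to 3 from day 3 into day 4 GFP-negative cells (all 4 in none of these fits) and 0 to 1 from day 4 to day 5 in GFP-positive cells. It lowered the all-gene counts to as few as 97 (days 0 to 1), 168 (1 to 2), 123 (2 to 3) and 160 (day 4 to 5, GFP-negative). Leaving replicate 1 of day 0 out of contrasts that do not use it, added after seeing the data, gave 3 and 4 members in the first and second of these. Values near 0 changed sign: without 1 library the day 4 gate difference of *Lhx5* ran from -0.015 to 0.13 and the day 4 to day 5 change of *Lhx2* in GFP-positive cells from -0.040 to 0.030, the latter being 0.057 after quantile normalization. In all, 237 of 273 log2-fold-changes without 1 library, and 305 of 344 under other settings, kept direction and call. Same-numbered libraries did not deviate together (mean correlation -0.001 over all pairs of groups, no contrast with all 3 pairs over 0.1). A replicate block changed no member's call, with 2 members called between the day 4 gates and 3 between those of day 5. It moved an all-gene count by over 1.5 times only for the change of the gate difference, from 23 to 15, which was 37 with a pseudocount of 5, 14 with no filter, 51 without replicate 1 of day 0 and 8 to 12 without 1 library of its groups. Quantile normalization gave 675 instead of 1052 calls between the day 5 gates, and 2 members (without *Isl1*). Count models (edgeR) were not run because whole reads were not recovered. Depth limits *Lhx3*, *Lhx4* and *Lhx8*, with at most 16.4 normalized counts in any library.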

Other observations

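The Lmx group of LIM-homeobox genes, relatives of the members that pattern the midbrain roof and floor, had its own course. *Lmx1b* stood at 186 to 217 normalized counts on day 2 and at 1394 to 1633 on day 3, a rise of 2.94 on the log2 scale (adjusted p = 5.57e-07, limma with Benjamini-Hochberg adjustment). It was kept in GFP-negative cells, with means of 1340 and 1307 on days 4 and 5, and was at 220 and 181 in GFP-positive cells. Between the gates it differed by -2.62 and -2.84 (adjusted p = 4.87e-07 and 1.27e-07). *Lmx1a* rose by 4.11 from day 3 into day 4 GFP-negative cells (adjusted p = 7.34e-06), from a mean of 8.47 normalized counts to 162, and reached 360 on day 5, against 18.5 and 33.1 in GFP-positive cells. *En1*, a midbrain and hindbrain factor that was among the genes most like *Isl1*, had means of 1902 and 3272 normalized counts in GFP-negative cells and 103 and 306 in GFP-positive cells.

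Of 8 eye-field and optic vesicle transcription factors, 4 were called higher in GFP-positive cells on day 4 and 6 on day 5, against 0.328% and 0.400% of all genes. Of 10 neurogenesis and neuronal markers 2 and 4 were called lower, against 3.63% and 4.61%.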
